A study of Drosophila melanogaster with 7 samples.

Results

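The trypsin genes of the adult midgut that carry a Greek letter name were followed in Esg-GFP+ cells of the Drosophila midgut, library by library. Every gene whose FlyBase symbol is a Greek letter name followed by Try was taken, which gave 11 of the 7608 genes in the table, from alphaTry to lambdaTry. RNA-seq had been carried out on GFP+ cells sorted by FACS from midguts of adults at day 10. The flies were Esg-GFP; Sox21a-/- (3 libraries) or Esg-GFP with intact Sox21a, labelled wild type (4 libraries), so that both groups carried the Esg-GFP fusion. Esg is a transcription factor of intestinal stem cells and enteroblasts, and Sox21a is a transcription factor needed for enteroblasts to differentiate. The Sox21a-/- lines were made with CRISPR/Cas9 and lack nearly the whole coding region, and which of the alleles was sequenced is not given in the sources used here. The guts of many flies were pooled for each sample, the gate for GFP was set with midguts of w1118 flies, and the sorted population held whatever else passed that gate.

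Trypsins are serine proteases that cut proteins after lysine and arginine. In the fly midgut they are made as inactive precursors by enterocytes, the absorptive cells of the epithelium, and are secreted into the lumen, where they digest food protein. Stem cells and enteroblasts are not known as a source of digestive enzymes. Each of the 11 genes encodes a trypsin or a closely related protease, and the genes arose by tandem duplication, so several of them are nearly the same in sequence.

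Expression was given as FPKM, a count of reads divided by the length of the exons and by the mapped reads of the library. Differences are Sox21a-/- minus wild type on the log2(FPKM + 1) scale, which understates the change of weakly expressed genes. They were tested with limma over 6565 genes (those whose mean reached 1 FPKM), and all 11 trypsin genes were among these. A gene was called either by a Benjamini-Hochberg adjusted p of at most 0.05 or by the criteria of the study, P of at most 0.05 and a fold of at least 2. An exact permutation test of each single gene, two-sided, was run beside it over the 35 ways of assigning the group labels, and its smallest possible p is 0.0286.

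The libraries held between about 8235833 and 10283909 reads, as recovered from the smallest steps of the values, and 23.0% to 28.5% of the genes were listed at 0 in a given library. Genes used by every cell are among these, so a 0 can be a failed estimate. Sox21a itself was listed at 96.3, 50.6 and 0 FPKM in Sox21a-/- replicates 1, 2 and 3, against 0, 0, 230.4 and 233 FPKM in wild type replicates 1, 2, 3 and 4, so its RNA did not check the labels and both group names stand for the labels throughout. In all lists of values below, libraries are given in the order of their replicate numbers. Of the trypsin genes, 7 had a value above 0 in all 7 libraries, and the other 4 had a 0 in some library.

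The 7 genes above 0 in all libraries (epsilonTry, thetaTry, lambdaTry, kappaTry, iotaTry, zetaTry and etaTry) all had a higher mean in Sox21a-/- cells. By P and fold, 7 of the 11 trypsin genes were called higher and 0 lower, where 6.67% of all genes tested were called higher and 4.02% lower, and where 8.25% of the genes above 0 in all libraries were called higher. By adjusted p, 2 of the 11 were called higher, lambdaTry and kappaTry, and 0 lower, where 1.39% of all genes tested were called higher and 1.05% lower, and where 1.95% of the genes above 0 in all libraries were called higher. With zeros treated as missing, 5 were called higher by adjusted p, where 6.87% of the genes then tested were. For 6 of the 11, every Sox21a-/- library was above every wild type library, which held for 9.72% of all genes tested and for 16.1% of those above 0 in all libraries. The median log2 difference of the 11 genes was 1.21, that of the 7 genes above 0 in all libraries was 2.11, and that of all genes tested was 0.04.

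epsilonTry (FBgn0010425), a trypsin and the most strongly expressed of the 7 in all libraries, had 419, 696 and 274 FPKM in Sox21a-/- cells, against 37.5, 131, 91.3 and 102 FPKM in wild type cells. The groups did not overlap, with Sox21a-/- replicate 2 highest and wild type replicate 1 lowest of all. Its mean was 463 ± 214 FPKM in Sox21a-/- cells (SD, n = 3) and 90.7 ± 39.3 FPKM in wild type cells (SD, n = 4). The log2 difference was 2.37 (SE 0.52), with a limma adjusted p of 0.10 and an exact permutation p of 0.0286.

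thetaTry (FBgn0011555), also a trypsin, had 78.6, 87.0 and 75.1 FPKM in Sox21a-/- cells, against 1.67, 36.1, 17.3 and 19.1 FPKM in wild type cells. The Sox21a-/- libraries lay close together, at 80.2 ± 6.09 FPKM (SD, n = 3), while the wild type libraries were spread widely, at 18.6 ± 14.1 FPKM (SD, n = 4), with replicate 1 lowest. The groups did not overlap. The ratio of the means was 4.32 and the log2 difference 2.55 (SE 0.89), with a limma adjusted p of 0.317 and an exact permutation p of 0.0571. Without wild type replicate 1 the log2 difference was 1.76, with a limma adjusted p of 0.0682.

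lambdaTry (FBgn0043470) and kappaTry (FBgn0043471) lie tail to tail, with their annotated ends 5 bases apart on opposite strands. lambdaTry had 40.3, 40.0 and 26.0 FPKM in Sox21a-/- cells, against 3.50, 6.32, 10.2 and 7.42 FPKM in wild type cells. kappaTry had 31.6, 33.9 and 19.3 FPKM in Sox21a-/- cells, against 3.31, 5.66, 5.71 and 8.94 FPKM in wild type cells. In both genes all Sox21a-/- libraries were above all wild type libraries, and Sox21a-/- replicate 3 was the lowest of its group. lambdaTry rose by 2.26 on the log2 scale (SE 0.37, limma adjusted p = 0.0388, exact permutation p = 0.0286), and kappaTry by 2.11 (SE 0.37, limma adjusted p = 0.0481, exact permutation p = 0.0286). The libraries were made with a kit that does not mark strand, so reads that reach past either end cannot be assigned to one of the pair. The call of lambdaTry was lost without any one of Sox21a-/- replicates 1, 2 and 3 or wild type replicates 2 and 4 (adjusted p of 0.0592 to 0.123), and that of kappaTry without any one of the 7 libraries (0.0529 to 0.147).

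iotaTry (FBgn0015001) had 30.1, 21.7 and 19.0 FPKM in Sox21a-/- cells, against 7.62, 9.54, 9.79 and 11.3 FPKM in wild type cells. The wild type libraries were close to each other, at 9.55 ± 1.49 FPKM (SD, n = 4), and lay below all 3 Sox21a-/- libraries, at 23.6 ± 5.76 FPKM (SD, n = 3). The ratio of the means was 2.47 and the log2 difference 1.21 (SE 0.25), with a limma adjusted p of 0.0754 and an exact permutation p of 0.0286. iotaTry lies at the end of the gene cluster opposite to lambdaTry.

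etaTry (FBgn0011554) and zetaTry (FBgn0011556) were the weakest of the 7 in Sox21a-/- cells. etaTry had 11.9, 11.7 and 5.36 FPKM in Sox21a-/- cells, against 2.52, 3.07, 2.73 and 2.08 FPKM in wild type cells. Its groups did not overlap, and its log2 difference was 1.5 (SE 0.36, limma adjusted p = 0.126, exact permutation p = 0.0286). zetaTry had 15.4, 14.0 and 9.17 FPKM in Sox21a-/- cells, against 9.83, 3.31, 3.36 and 5.49 FPKM in wild type cells. Here the groups overlapped, since wild type replicate 1 was above Sox21a-/- replicate 3, and the log2 difference was 1.17 (SE 0.43, limma adjusted p = 0.325, exact permutation p = 0.0857). The values of the 7 genes rest on between about 16.1 reads (the lowest value of etaTry in the wild type) and 5916 reads (epsilonTry in Sox21a-/- replicate 2), so that the weakest values carry the largest counting error.

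**Figure D1:**
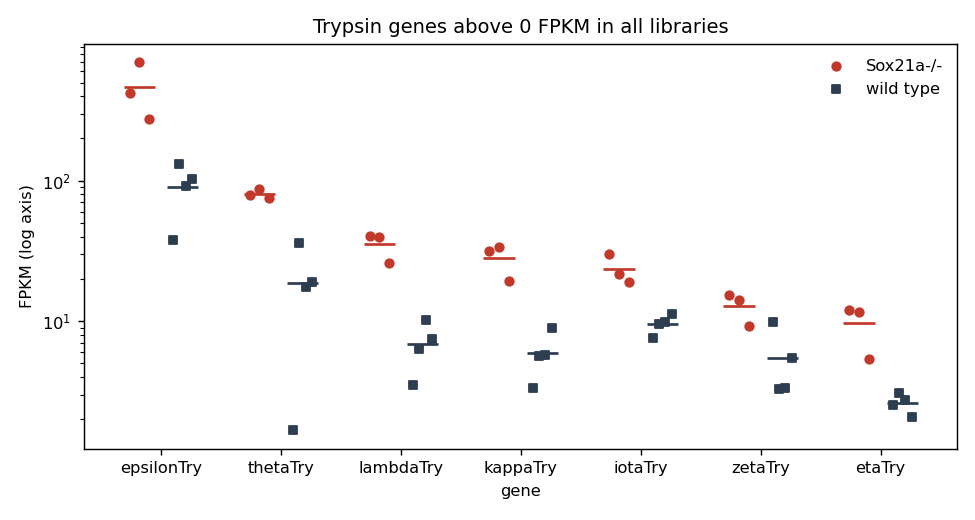
FPKM (log axis) of the 7 trypsin genes above 0 in all libraries, with Sox21a-/- libraries as circles at the left of each gene and wild type libraries as squares at the right, and the mean of each group as a line. All Sox21a-/- circles lie above all wild type squares except for zetaTry, where wild type replicate 1 reached 9.83 FPKM and Sox21a-/- replicate 3 was at 9.17 FPKM.

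Wild type replicate 1 stood apart from the other wild type libraries in these genes. It was the lowest of the wild type libraries for epsilonTry, thetaTry, lambdaTry, kappaTry and iotaTry, and the highest for zetaTry. The overlap of the groups in zetaTry came from this library, since all Sox21a-/- values of zetaTry were above wild type replicates 2, 3 and 4. Wild type replicate 1 was singled out after its values were seen. The libraries also fell into a higher and a lower depth, with Sox21a-/- replicate 2 and wild type replicates 1 and 2 at the higher one. In all 7 genes, Sox21a-/- replicate 2 was above wild type replicates 1 and 2, a comparison that rests on 1 Sox21a-/- library. At the lower depth, Sox21a-/- replicates 1 and 3 were above wild type replicates 3 and 4 in all 7 genes. The share of all genes for which either comparison holds was not computed, so neither count can be set against such a share. With depth level as a covariate, 0 trypsin genes were called higher by adjusted p.

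The order of the 7 genes by FPKM had the same first gene in all libraries, and wild type replicate 1 departed most from the others, with zetaTry at rank 2 (rank 6 in the other 6 libraries) and thetaTry at rank 7. epsilonTry was first in 7 of 7 libraries, with 64.1% to 77.0% of the summed FPKM of the 7 genes in Sox21a-/- cells and 56.9% to 67.3% in wild type cells. thetaTry was second in 3 of 3 Sox21a-/- libraries and in 3 of 4 wild type libraries. etaTry was last in 3 of 3 Sox21a-/- libraries and in 3 of 4 wild type libraries. zetaTry made up 14.9% of the sum in wild type replicate 1, and between 1.55% and 3.50% in the other 6 libraries.

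Whether the genes changed by different amounts was tested with the ratio of each pair of the 7 genes, in 21 pairs. The log2 ratio of lambdaTry to iotaTry was higher by 1.15 in Sox21a-/- cells, that of epsilonTry to iotaTry by 1.09, and that of kappaTry to iotaTry by 1.01, each with an exact permutation p of 0.0571. In these 3 pairs, and in the ratio of kappaTry to zetaTry (exact permutation p = 0.114), the ratio was higher in every Sox21a-/- library than in every wild type library. The smallest exact permutation p adjusted over the 21 pairs was 0.400, but a single pair at the smallest possible p of 0.0286 would not have passed this adjustment either, so it does not show that the genes changed by equal amounts. lambdaTry was above iotaTry in 3 of 3 Sox21a-/- libraries and in 1 of 4 wild type libraries.

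The 11 genes lie on chromosome arm 2R between positions 11336840 and 11357537 of BDGP6, within 20.7 kb. Of the 14 genes annotated between these ends, 13 were in the table, and the remaining trypsin-like genes CG30025 and CG30031 are among them. lambdaTry is at one end, and after it come kappaTry, zetaTry, etaTry, thetaTry, alphaTry, epsilonTry, betaTry, gammaTry, CG30031, CG30025, deltaTry and iotaTry. The genes with a difference of at least 2 on the log2 scale (lambdaTry, kappaTry, thetaTry and epsilonTry) did not form a single block, since zetaTry and etaTry lie between kappaTry and thetaTry with 1.17 and 1.5. Of the nearest genes outside the cluster, Fpps (farnesyl diphosphate synthase), CG7745, CG12384 and a tRNA gene for selenocysteine were not called, with limma adjusted p between 0.698 and 0.939, and each of them had a 0 in some library.

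**Figure D2:**
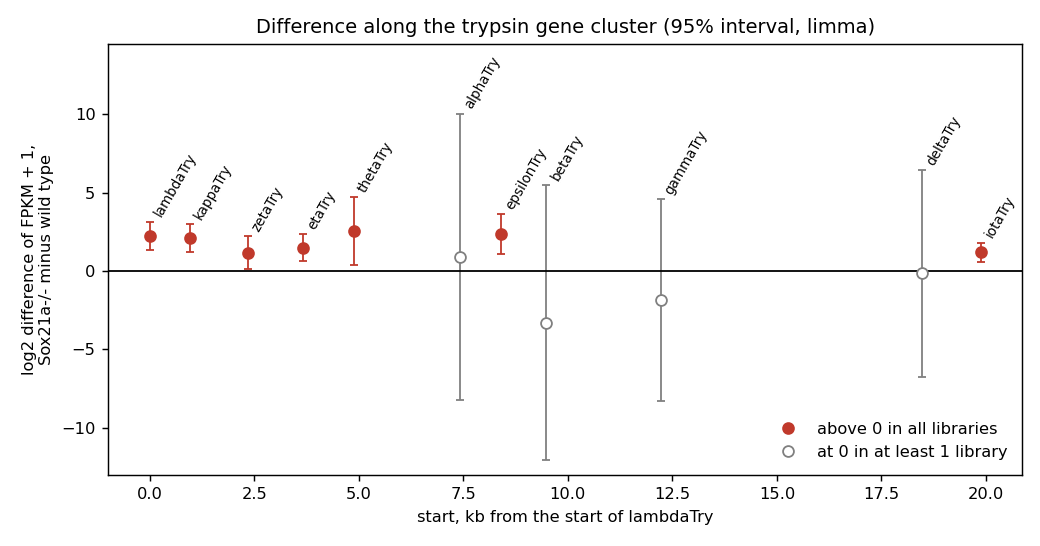
Log2 difference of FPKM + 1 (Sox21a-/- minus wild type, with the 95% interval from limma) of the 11 trypsin genes against the distance of each start from that of lambdaTry in kb. Filled points are genes above 0 in all libraries, and their intervals lie above 0. Open points are alphaTry, betaTry, gammaTry and deltaTry, each with a 0 in some library, and their intervals cross 0.

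alphaTry, betaTry, gammaTry and deltaTry, the genes with zeros, were called by neither rule. alphaTry (FBgn0003863) was listed at 0, 4417 and 1332 FPKM in Sox21a-/- cells, against 201, 748, 545 and 0 FPKM in wild type cells. betaTry (FBgn0010357) was listed at 0, 0 and 1319 FPKM in Sox21a-/- cells, against 203, 981, 656 and 0 FPKM in wild type cells. The highest value of all trypsin genes (alphaTry in Sox21a-/- replicate 2) thus stood in a library in which betaTry was listed at 0.

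gammaTry (FBgn0010359) was listed at 0, 0 and 249.9 FPKM in Sox21a-/- cells, against 25.5, 111, 88.1 and 0 FPKM in wild type cells. deltaTry (FBgn0010358) was listed at 0, 0 and 251 FPKM in Sox21a-/- cells, against 26.0, 0, 88.1 and 0 FPKM in wild type cells. In all 4 genes the values above 0 were highest in the Sox21a-/- group, and the zeros fell in both groups. For betaTry, gammaTry and deltaTry this rests on replicate 3, the only Sox21a-/- library with a value above 0. The fitted log2 differences were 0.92 (SE 3.74) for alphaTry, -3.29 (SE 3.60) for betaTry, -1.85 (SE 2.63) for gammaTry and -0.15 (SE 2.70) for deltaTry, with limma adjusted p between 0.698 and 0.977 and exact permutation p between 0.486 and 1.

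These genes share values as well as zeros. alphaTry and betaTry were within 0.966% of each other in Sox21a-/- replicate 3 and within 0.549% in wild type replicate 1, and 23.8% and 16.9% apart in wild type replicates 2 and 3. gammaTry and deltaTry were within 0.445% of each other in Sox21a-/- replicate 3, and within 1.93% and 0.0353% in wild type replicates 1 and 3. CG30031 lay within 0.147% of gammaTry in Sox21a-/- replicate 3 and within 0.165% in wild type replicate 3. How the reads of such near-identical copies were divided among them is not given in the sources used here, so the value of any one of them is uncertain. Of the 4 genes together with CG30025 and CG30031, 6, 5 and 0 of 6 were listed at 0 in Sox21a-/- libraries, against 2, 2, 0 and 6 of 6 in wild type libraries. Sox21a-/- replicate 3 and wild type replicate 3 were the libraries with a value for all 6, and there each of the 6 was higher in the Sox21a-/- library, which is a comparison of 1 library with 1 and carries no test.

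**Figure D3:**
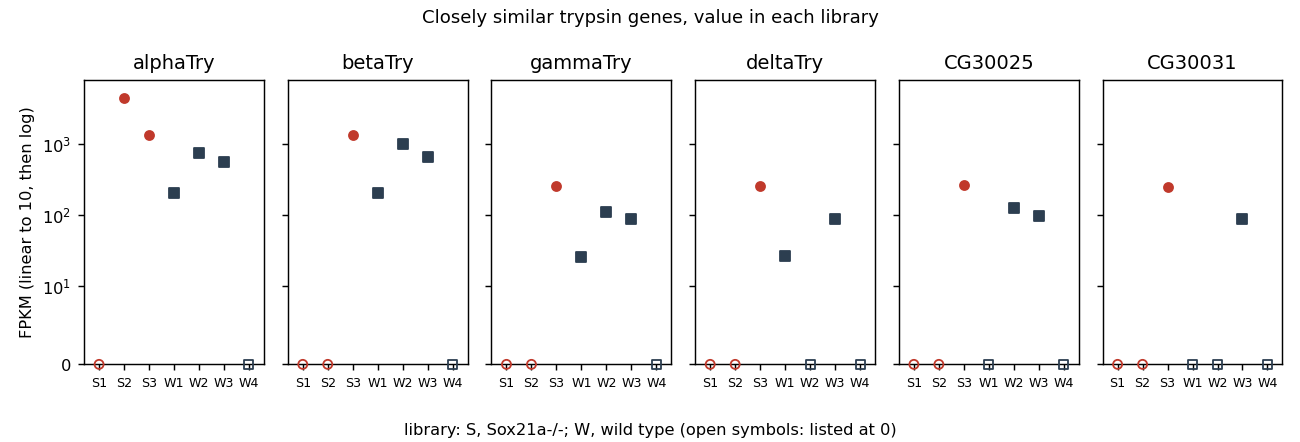
FPKM (linear to 10, then log) of alphaTry, betaTry, gammaTry, deltaTry, CG30025 and CG30031 in each library, with Sox21a-/- libraries 1 to 3 as circles at the left and wild type libraries 1 to 4 as squares at the right. Open symbols mark values listed at 0. Sox21a-/- replicate 1 and wild type replicate 4 have open symbols for all 6 genes, and replicate 3 of each group for none.

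Across the 7 libraries the trypsin genes above 0 in all libraries varied together. Pearson's r of log2(FPKM + 1) over the 7 libraries was between 0.274 (zetaTry with thetaTry) and 0.974 (kappaTry with iotaTry), and 11 of the 21 pairs were above 0.9. All of these values share the difference between the groups, the depth and the low values of wild type replicate 1.

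The genes whose values were most like those of each trypsin gene, by the same r over the 7 libraries, were for the 7 genes above 0 in all libraries in no case another of the 11. The 5 for epsilonTry were Bace (an aspartic protease), GstD7 (a glutathione S-transferase), Jon99Ci and Phae1 (serine proteases) and CG6296. The 5 for thetaTry were hiro, yip7 (a serine protease), CG11426, CG32483 and Srg3. The 5 for iotaTry were CG15406, NaPi-T, CG6125, CG33258 and CG5770, and kappaTry had CG33258 and CG5770 in common with it, beside CG7968, LManII (an alpha-mannosidase) and VhaM9.7-b (a subunit of the vacuolar proton pump). The 5 for lambdaTry were CG8093, Mal-A3 (a maltase), vanin-like, CG7916 and CG31516. The 5 for etaTry were CG3699, CG7631, CG10513, Smvt and CG10514, and those for zetaTry were CG34242, CG1532, bisc, Faa and CG12824. Over these 35 places r was between 0.964 and 0.999.

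Other genes of digestion, from lists of enzymes written by their known function, were set beside the trypsin genes. Of 25 other midgut serine proteases in the table (of 29 written), 8 were called higher and 1 lower by P and fold, and 0 by the limma adjusted p. By P and fold, 6.67% of all genes tested were called higher and 4.02% lower. Among all genes above 0 in all libraries, 8.25% were called higher. The median log2 difference of these proteases was 0.60 over all 25 and 1.61 over the 11 that were above 0 in all libraries. yip7 had 2102, 2886 and 1645 FPKM in Sox21a-/- cells, against 109, 847, 483 and 494 FPKM in wild type cells. Jon99Ci had 481, 877 and 289 FPKM in Sox21a-/- cells, against 29.0, 159, 95.5 and 98.2 FPKM in wild type cells. The other 9 were Jon25Biii, Jon44E, Ser8, Jon65Ai, Jon66Ci, Jon66Cii, CG18179, CG18180 and CG7542, with log2 differences between 0.04 (Jon66Cii) and 2.69 (Jon65Ai), of which all but Jon25Biii, Jon65Ai and Jon66Cii were called by P and fold. In yip7 and Jon99Ci, as in epsilonTry, the groups did not overlap and wild type replicate 1 was lowest. The protease called lower, CG17571, was listed at 0 in all 3 Sox21a-/- libraries and in wild type replicate 1.

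Of 18 carbohydrases in the table (of 20 written), 7 were called higher and 0 lower by P and fold, and 3 (tobi, LManII and Mal-A3) by adjusted p. Of all genes tested, 6.67% were called higher and 4.02% lower by P and fold, and 1.39% higher by adjusted p. The median log2 difference of the carbohydrases was 1.14 over all 18 and 1.52 over the 11 above 0 in all libraries. In the trypsin genes these medians were 1.21 and 2.11. tobi, an alpha-glucosidase, had 42.5, 84.6 and 25.5 FPKM in Sox21a-/- cells, against 0.396, 0.70, 1.20 and 0.959 FPKM in wild type cells, and rose by 4.69 on the log2 scale (SE 0.46, limma adjusted p = 0.00578). Mal-A4 (a maltase), LManIII and LManI (alpha-mannosidases) were higher by 2.66, 2.38 and 1.68 on the log2 scale by P and fold. Mal-A4 was listed at 0 in wild type replicate 3, which raises its difference. The lipase mag had 146, 179 and 122 FPKM in Sox21a-/- cells, against 4.63, 30.2, 43.2 and 41.4 FPKM in wild type cells, and was called by P and fold. Among the lysozymes, LysC and LysP were called by P and fold. LysC was listed at 0 in wild type replicate 3. LysP was listed at 0 in all 4 wild type libraries, against 5.40, 8.46 and 4.21 FPKM in Sox21a-/- cells.

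**Figure D4:**
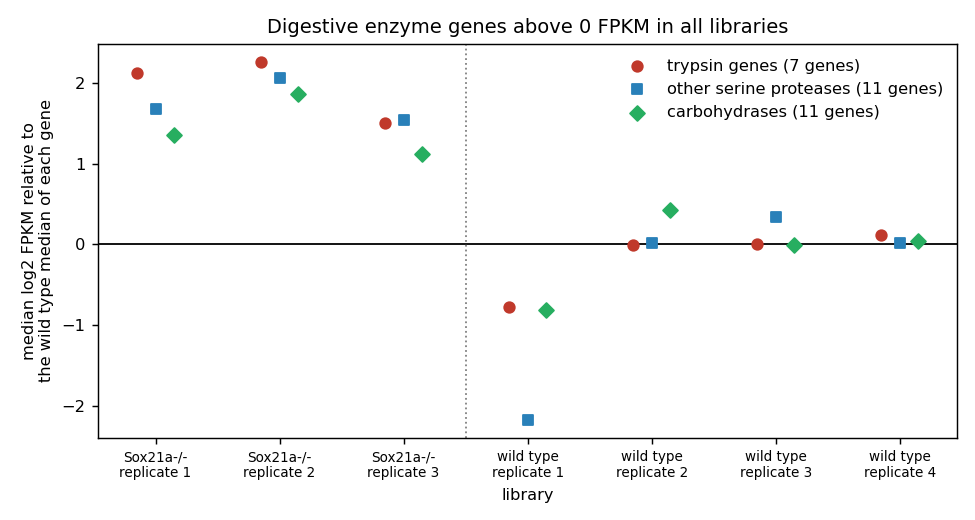
Median log2 FPKM relative to each gene's wild type median, in each library, for the 7 trypsin genes, 11 other serine proteases and 11 carbohydrases above 0 in all libraries. The trypsin genes were at 2.12, 2.26 and 1.5 in Sox21a-/- libraries and at -0.78, -0.01, 0.01 and 0.12 in wild type libraries, and all 3 groups of genes were lowest in wild type replicate 1.

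Whether the trypsin genes differed from the other serine proteases or the carbohydrases in this respect was not tested. In bulk RNA, more cells of a type and more RNA per cell cannot be told apart, and this holds for the trypsin genes as for the rest.

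Because enterocytes make trypsins, their markers were read in the same libraries. nub, a transcription factor of enterocytes, had 4.68, 7.57 and 4.56 FPKM in Sox21a-/- cells, against 1.93, 4.40, 4.32 and 3.68 FPKM in wild type cells. Its groups did not overlap, and its log2 difference was 0.54 (limma adjusted p = 0.600, exact permutation p = 0.0857). Of the 8 enterocyte markers, 6 were in the table, 5 of them with a 0 in some library, and their summed level was 185 to 251 FPKM in Sox21a-/- cells and 7.08 to 332 FPKM in wild type cells. Myo31DF, an enterocyte myosin, was listed at 0 in all 3 Sox21a-/- libraries and in wild type replicates 1 and 3, while wild type replicate 2 had 241 FPKM and wild type replicate 4 had 212 FPKM. GATAe, a transcription factor of the midgut, was listed at 0, 53.9 and 74.4 FPKM in Sox21a-/- cells, against 0 FPKM in all 4 wild type libraries, and was called higher by P and fold. Tsp2A, a protein of the septate junctions, had 119, 179 and 97.0 FPKM in Sox21a-/- cells, against 0, 80.9, 64.5 and 69.6 FPKM in wild type cells, so that its groups did not overlap, with an exact permutation p of 0.171. Ssk and cad were called by neither rule. The summed level of the enterocyte markers was lowest in wild type replicate 1, where Myo31DF, Ssk, GATAe and Tsp2A were listed at 0. Such zeros can be failed estimates. The sum was highest in wild type replicates 2 and 4 (332 and 290 FPKM), above all Sox21a-/- libraries. Most of it there was Myo31DF (241 and 212 FPKM), which was listed at 0 in every other library. The 7 trypsin genes above 0 in all libraries had their lowest sum in wild type replicate 1 (66.0 FPKM), and all 11 had theirs in wild type replicate 4 (157 FPKM). The part of enterocyte RNA in the difference of the trypsin genes was not tested.

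klu, a transcription factor of enteroblasts, had 9.14, 11.4 and 16.6 FPKM in Sox21a-/- cells, against 43.0, 29.7, 49.0 and 41.0 FPKM in wild type cells, and fell by 1.66 on the log2 scale (limma adjusted p = 0.0388). The other 4 progenitor genes in the table (of 9 written, klu included) had zeros. Of these, mira, which encodes an adaptor protein of dividing neural stem cells, was called higher by P and fold. It was listed at 22.9, 0 and 28.9 FPKM in Sox21a-/- cells, against 0 FPKM in all 4 wild type libraries. Sox100B, N and Sox21a had log2 differences of 2.86, 0.58 and 0.17 and were called by neither rule. Sox100B was above 0 only in Sox21a-/- replicate 3 (378 FPKM). NPF, a peptide of enteroendocrine cells, was listed at 5435, 8621 and 0 FPKM in Sox21a-/- cells, against 9268, 3989, 4270 and 4428 FPKM in wild type cells. The summed level of 7 enteroendocrine markers in the table (of 13) was 8691 to 35599.7 FPKM in Sox21a-/- cells and 4517 to 28603 FPKM in wild type cells. Orcokinin, another of these markers, was listed at 29986, 0 and 22698.5 FPKM in Sox21a-/- cells, against 19295, 0, 0 and 16414 FPKM in wild type cells. The sum was lowest in the libraries that listed Orcokinin at 0. Of the 8 hemocyte markers, 7 were in the table. The 4 above 0 in all libraries summed to 7.83 to 73.4 FPKM in Sox21a-/- cells and 2.47 to 4.01 FPKM in wild type cells. Sox21a-/- replicate 2 was highest. By P and fold, vkg and NimC1 were called higher, where 8.25% of all genes above 0 in all libraries were. In all 4, every Sox21a-/- library was above every wild type library, which held for 16.1% of such genes. The 4 fat body markers in the table (of 6) summed to 46.2 to 212 FPKM in Sox21a-/- cells and 36.6 to 161 FPKM in wild type cells. The 4 visceral muscle markers in the table (of 11) summed to 6.85 to 13.4 FPKM in Sox21a-/- cells and 2.18 to 17.2 FPKM in wild type cells. The 2 copper cell markers in the table (of 3) summed to 19.7 to 44.7 FPKM in Sox21a-/- cells and 20.7 to 35.5 FPKM in wild type cells. Vha100-4, a subunit of the vacuolar proton pump, had 12.1, 32.2 and 11.03 FPKM in Sox21a-/- cells, against 1.41, 8.11, 3.003 and 2.64 FPKM in wild type cells, and was called higher by P and fold with a log2 difference of 2.04. lab, a homeobox transcription factor, had 7.64, 12.6 and 9.93 FPKM in Sox21a-/- cells, against 34.1, 13.2, 17.8 and 18.03 FPKM in wild type cells, with a log2 difference of -0.92 that was called by neither rule. The trachea markers and esg, pros, Mhc and Hml were not found by name in the table and were not analysed here. The part of RNA of other cells in the trypsin values was not tested.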

How the data were processed

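RNA-seq of sorted Esg-GFP+ midgut cells was analysed from the deposited FPKM values, which the authors computed for each library with Cufflinks 2.2.1 after mapping single-end reads to Release 5 (BDGP5) with TopHat2 2.0.10, per the submitters' processing notes and the methods. The methods give 3 biological replicates and the labels 4 wild type libraries, and all were kept and counted as separate samples. Whether any of them came from the same flies is not given in the sources used here. Wild type replicates 3 and 4 had nearly the same recovered depth (8491860 and 8496565 reads). With both averaged, neither lambdaTry nor kappaTry passed the adjusted threshold (limma adjusted p of 0.0686 and 0.0828). No sample column was left unused. Names and positions were taken by FlyBase ID from BDGP6, with 7339 of 7608 IDs matched, and positions are those of BDGP6. No sequences were used.

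Log2(FPKM + 1), with a pseudocount of 1, of genes whose mean reached 1 FPKM was fitted in limma 3.58.1 (R 4.3.3; lmFit, eBayes with trend and robust) without a covariate and tested two-sided, with Benjamini-Hochberg adjustment over 6565 genes. This step was tested on simulated data. Depth was recovered from the step between the lowest values of FPKM times kilobases and rests on 5 to 39 genes per library, so reads per gene are approximate. Zeros were kept as deposited, and trypsin genes with zeros are given by library. P-values measure the spread between these libraries, which may in part be technical. Python 3.11.15, numpy 2.4.6, pandas 2.3.3 and matplotlib 3.10.9 were used for the rest.

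The genes named are all trypsin genes, the serine proteases of the list that are at 0 in no library or called (of which a few are given), the called members of the other digestive lists (at most 4 each), defining markers, the 5 most similar genes and the nearest genes on either side. The trypsin genes and all lists were chosen with earlier results of these data known. Alternatives tried were a pseudocount of 0.1 or 0.01, a mean minimum of 5 FPKM or none, scaling by quantiles or by median ratios, limma without trend and robust settings, zeros as missing, depth level as a covariate, wild type replicates 3 and 4 averaged, a replicate block and each library left out in turn.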

Additional observations from a re-analysis of the deposited data

Results flagged for a closer look

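CG30031, a trypsin-like gene of the same cluster, had 88.0 FPKM in replicate 3 of the wild type, while the remaining 3 wild type libraries had it listed at 0, so that 1 wild type library lay far from the rest. The 13 trypsin and trypsin-like genes of the cluster were examined in this way, and 1 of them had such a library. The rule flags about 1 of 20 groups by chance only where values are normally distributed. That rate does not apply to CG30031, since any single value above 0 is flagged when the remaining libraries are listed at 0. The Sox21a-/- group, with 3 libraries, was not examined.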

How the results depend on the processing

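All 7 trypsin genes above 0 in all libraries kept a positive difference under every alternative run. The log2 difference of iotaTry was 1.03 to 1.34 over these, and it passed the adjusted threshold with a pseudocount of 0.01 (1.29, adjusted p = 0.0437) and with zeros as missing (1.21, adjusted p = 0.00492), where epsilonTry and etaTry also did. The limma adjusted p was 0.00251 to 0.446 for lambdaTry and 0.00308 to 0.375 for kappaTry. The number of trypsin genes called higher by adjusted p, 2 as reported, was 1 with a pseudocount of 0.1, without the filter, with quantile normalization, with median-ratio scaling and without trend and robust settings, was 5 with zeros as missing (where 6.87% of genes tested were called higher), was 0 with depth as a covariate, with wild type replicates 3 and 4 averaged and with the replicate block, and was 0 to 1 without 1 library. Genes called by adjusted p, 160 as reported, numbered 610 with zeros as missing, 98 with depth as a covariate, 105 with replicates 3 and 4 averaged and 3 with the block. Genes called by P and fold, 702 as reported, numbered 458 with a mean of at least 5 FPKM and 444 with the block. The cause was not tested.

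The sign turned for alphaTry with replicates 3 and 4 averaged (-0.94) and with the block (-1.27), and was -1.39 to 4.67 without 1 library, while deltaTry was -2.81 to 1.18. The median over all 25 serine proteases, 0.60 as reported, was -0.055 to 1.38 without 1 library, the lowest without Sox21a-/- replicate 3. That of the lipases was -0.053 and -0.87 with pseudocounts of 0.1 and 0.01, -0.016 without the filter, and -0.31 to 2.75 without 1 library. Whether equal replicate numbers pair the libraries was not settled. The deviations of numbers 1, 2 and 3 correlated at r = 0.005, 0.372 and 0.202 over 2460 genes. Sox21a-/- replicates 2 and 3 correlated best with the wild type library of the same number, and Sox21a-/- replicate 1 with wild type replicate 4 (0.268).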
